A study of Sus scrofa with 6 samples.

Results

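The proteasome is the large protease that cuts ubiquitin-tagged proteins in the cytosol and nucleus into short peptides. Its barrel-shaped core particle is built of outer rings of alpha subunits (PSMA genes) and inner rings of beta subunits (PSMB genes), and PSMB5, PSMB6 and PSMB7 carry the cutting sites. A regulatory particle of ATPases (PSMC genes) and other subunits (PSMD genes) binds tagged proteins, removes the ubiquitin and feeds the chain into the core. Under interferon, the catalytic subunits can be replaced by PSMB8, PSMB9 and PSMB10, which form the immunoproteasome, and the intestinal epithelium uses the resulting peptides for antigen presentation on class I molecules. Further genes encode alternative activators (PSME genes), an inhibitor (PSMF1) and factors that help to assemble the core (PSMG genes).

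The genes were chosen by symbol: all symbols that start with PSM, a letter from A to G and a number. This gave 40 genes from 46 probe sets, out of 6765 genes in all: 14 genes of the standard core, 2 of the immunoproteasome, 15 of the regulatory particle, 5 activators and inhibitors, and 4 assembly factors (PSMD5, PSMD10, PSMG1 and PSMG3). PSMA8, PSMB9, PSMB11, PSMC4, PSMD7, PSMD9, PSMG2 and PSMG4 were not analysed here. IPEC-1 and IPEC-J2 are porcine epithelial lines that became immortal on their own after isolation from the small bowel of newborn animals, IPEC-J2 from the jejunum. Both were untreated and grown as polarised layers on membrane inserts in medium with foetal calf serum, insulin-transferrin-selenium and epidermal growth factor. The labels give 7 days of culture, and the methods a later day. RNA from 3 cultures of each line (500 ng each) was hybridised to 6 Affymetrix Porcine Genome Arrays, and the question was how gene expression in IPEC-J2 differs from that in IPEC-1. Each line is a single isolate, so a difference belongs to these lines.

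The signals were read as log2 values, with a floor at exactly 4 that carries no order. This floor held between 40.5 and 48.3% of the probe sets per array, and 5513 genes that exceeded it on at least 1 array are called measured genes. All 40 proteasome genes were measured, and PSMB8 alone touched the floor, on 1 array. All 12 epithelial markers were above the floor on at least 1 array, with EPCAM at 13.34 to 13.60 over the 6 arrays. Others differed between the lines. CLDN3 stayed at the floor in IPEC-1 and reached 6.18, 6.24 and 6.00 in IPEC-J2. VIL1 read 8.45, 4.00 and 8.53 in IPEC-1 against 13.83, 14.04 and 13.81. Both passed, as did CLDN7 in the same direction and KRT19 in the opposite one (-0.80), while 8 markers were not called. The epithelial sum (log2) was 15.2 to 15.3 in IPEC-1 and 15.6 to 15.8 in IPEC-J2. Of 8 fibroblast markers 4 were at the floor on all arrays, as were 4 of 7 leukocyte and 4 of 6 endothelial markers, PTPRC, CDH5 and COL3A1 among them. The summed signal of the fibroblast list was 8.35 to 8.62 in IPEC-1 and 9.72 to 10 in IPEC-J2 (log2 of the sum), where THY1 stood at 9.38 to 9.82 in IPEC-J2 and at the floor in IPEC-1, and POSTN ran the other way. The leukocyte sum was 7.17 to 7.68 and 6.81 to 7.17, and the endothelial sum 7.02 to 7.12 and 6.58 to 6.87, with CD3E and PECAM1 lower in IPEC-J2 at signals of 6.13 or less. The part of these markers in the results was not tested, and in bulk RNA fewer cells of a type and less RNA per cell cannot be told apart. The array of IPEC-J2 replicate 1 was dimmer than the others, with a 75th percentile of 8.31 against 8.51 to 8.56.

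The proteasome genes differed little between the cell lines, and those that differed ran both ways. With limma and Benjamini-Hochberg adjustment over all 6765 genes (adjusted p under 0.05), 1 gene was higher in IPEC-J2 and 4 were lower (3 and 0, and other genes, with each array centred on its 75th percentile). The first count is 12.5% of the 40 genes, where 25.4% of the measured genes and 20.7% of all genes were called. The background was 9.46% of all genes for higher and 11.2% for lower. With the centring, 22.9% of all genes were called. The higher gene was PSMD3 and the lower genes were PSMD6, PSMA6, PSMB5 and PSMC6. At an unadjusted p under 0.05, 9 proteasome genes were higher and 10 lower, together 47.5% of the 40 against 40.2% of the measured genes. In 19 of the 40 genes all signals of one line lay above all signals of the other (9 with IPEC-J2 above, 10 with IPEC-J2 below). The same held for 47.5% of the measured genes (IPEC-J2 above in 19.9% and below in 27.6%), so the share of proteasome genes equalled the background. The smallest two-sided p that an exact permutation of 3 arrays against 3 can reach is 0.1.

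The median log2 difference (IPEC-J2 minus IPEC-1) of the 40 genes was 0.00, with 20 positive and 20 negative differences, and that of the measured genes was -0.05. The middle part of the proteasome genes, from the lower to the upper quartile, spanned -0.23 to 0.28, and that of the measured genes -0.46 to 0.35. A difference smaller than 0.5 was found in 33 genes, or 82.5%, in comparison to 58.2% of the measured genes. Only PSMB8 exceeded 1, which 17.3% of the measured genes did. The spread between cultures was also small in IPEC-J2, with a median SD of 0.101 for the proteasome genes and 0.176 for the measured genes. In IPEC-1 the corresponding SDs were 0.161 and 0.166. These comparisons with the measured genes are descriptions and were not tested. The genes were not matched on signal level, and the median proteasome signal was high, at 10.20 to 10.52 per array. The dimmer array of IPEC-J2 replicate 1 also enters the SDs. Its median deviation from the line mean was -0.13 for the measured genes and 0.03 for the proteasome genes.

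**Figure D1:**
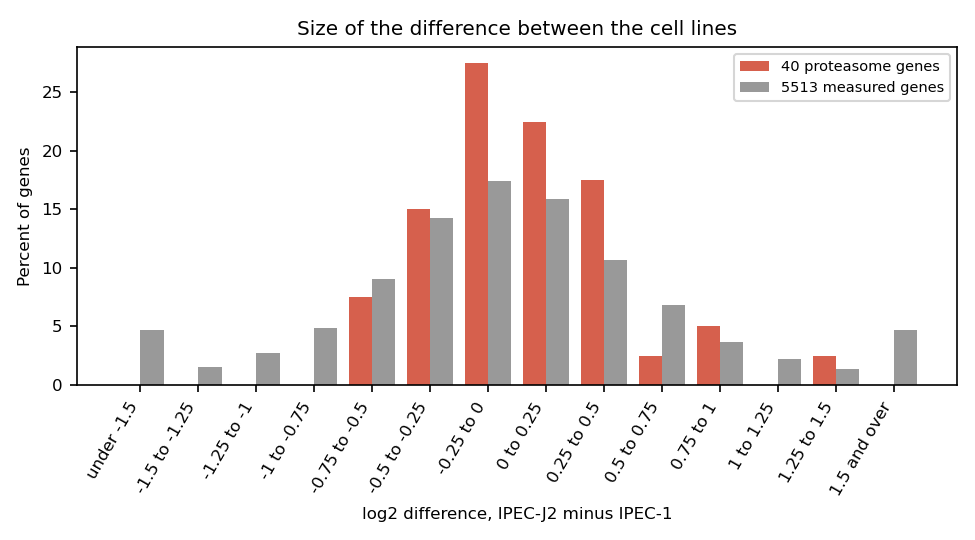
Percent of the 40 proteasome genes (red bars) and of the 5513 measured genes (grey bars) in each range of the log2 difference between IPEC-J2 and IPEC-1, with the outer bars open-ended. No proteasome gene lies below -0.75, and 1 lies above 1.

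In the outer rings of the core, PSMA6 was lower in IPEC-J2. This alpha subunit had log2 signals of 12.14, 12.25 and 12.16 on the arrays of IPEC-1 and of 11.86, 11.88 and 11.74 on those of IPEC-J2. The lines did not overlap, and the level in IPEC-J2 was 1.28-fold lower (log2 difference -0.36, SE 0.0527, adjusted p = 0.0157 from limma). PSMA1 and PSMA2, other members of the same ring, had differences in the opposite direction that did not pass. PSMA2 had signals of 11.54, 11.29 and 11.16 in IPEC-1, in comparison to 11.77, 11.79 and 11.69 in IPEC-J2, a difference of 0.42 (95% interval 0.13 to 0.71, adjusted p = 0.0665 from limma). PSMA1 ran from 10.74 to 10.86 in IPEC-1 and from 10.99 to 11.29 in IPEC-J2 (difference 0.34, adjusted p = 0.0690 from limma). PSMA2 passed without IPEC-1 replicate 1 (0.53, adjusted p = 0.0228 from limma) and PSMA1 without IPEC-J2 replicate 3 (0.41, adjusted p = 0.0453). Both were without overlap between the lines, as was PSMA7 (difference 0.21, adjusted p = 0.111 from limma). PSMA3, PSMA4 and PSMA5 overlapped, with differences of -0.05, -0.15 and -0.01. Of the 7 alpha genes, 1 was called lower and 0 higher, against a background of 20.7% of all genes and 25.4% of the measured genes called. Subunits that occupy the same ring thus had differences between -0.36 and 0.42.

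Among the beta genes, PSMB5 was lower in IPEC-J2. It encodes the subunit with chymotrypsin-like activity, the main target of proteasome inhibitors such as bortezomib. It had signals of 11.74, 11.66 and 11.56 on the IPEC-1 arrays, in comparison to 11.36, 11.32 and 11.30 on the IPEC-J2 arrays. All IPEC-J2 arrays lay below all IPEC-1 arrays, with a narrow spread in IPEC-J2, and the level was 1.25-fold lower (log2 difference -0.33, SE 0.0525, adjusted p = 0.0194 from limma). The other catalytic subunits of the standard core were not called. PSMB6, with caspase-like activity, had signals of 11.00, 10.96 and 10.60 in IPEC-1 against 10.71, 10.66 and 10.56 in IPEC-J2, a difference of -0.21 (95% interval -0.55 to 0.13), and it passed without IPEC-1 replicate 3 (-0.34, adjusted p = 0.0456 from limma). PSMB7, with trypsin-like activity, had signals of 11.60, 11.48 and 11.32 in IPEC-1, in comparison to 11.54, 11.46 and 11.41 in IPEC-J2, a difference of 0.00 (95% interval -0.22 to 0.23). In both, the lines overlapped.

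The structural beta subunit PSMB3 had the largest difference of the standard core, and it was not called. The signals of 9.37, 9 and 8.67 in IPEC-1 were spread widely and all lay below the 9.94, 9.62 and 9.75 of IPEC-J2. The difference was 0.76 (SE 0.212, 95% interval 0.19 to 1.32, adjusted p = 0.0785 from limma), and without IPEC-1 replicate 1 the gene passed (0.93, adjusted p = 0.0485). PSMB4 had a difference of -0.20 without overlap (adjusted p = 0.0729 from limma). PSMB1 and PSMB2 had differences of 0.15 and -0.20 and overlapped. Within the pair of arrays that shared culture note A and within the pair that shared note B (marks in the labels, one array of each line per note), the differences were -0.40 and -0.39 for PSMA6, -0.44 and -0.30 for PSMB5, and 0.38 and 0.94 for PSMB3.

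**Figure D2:**
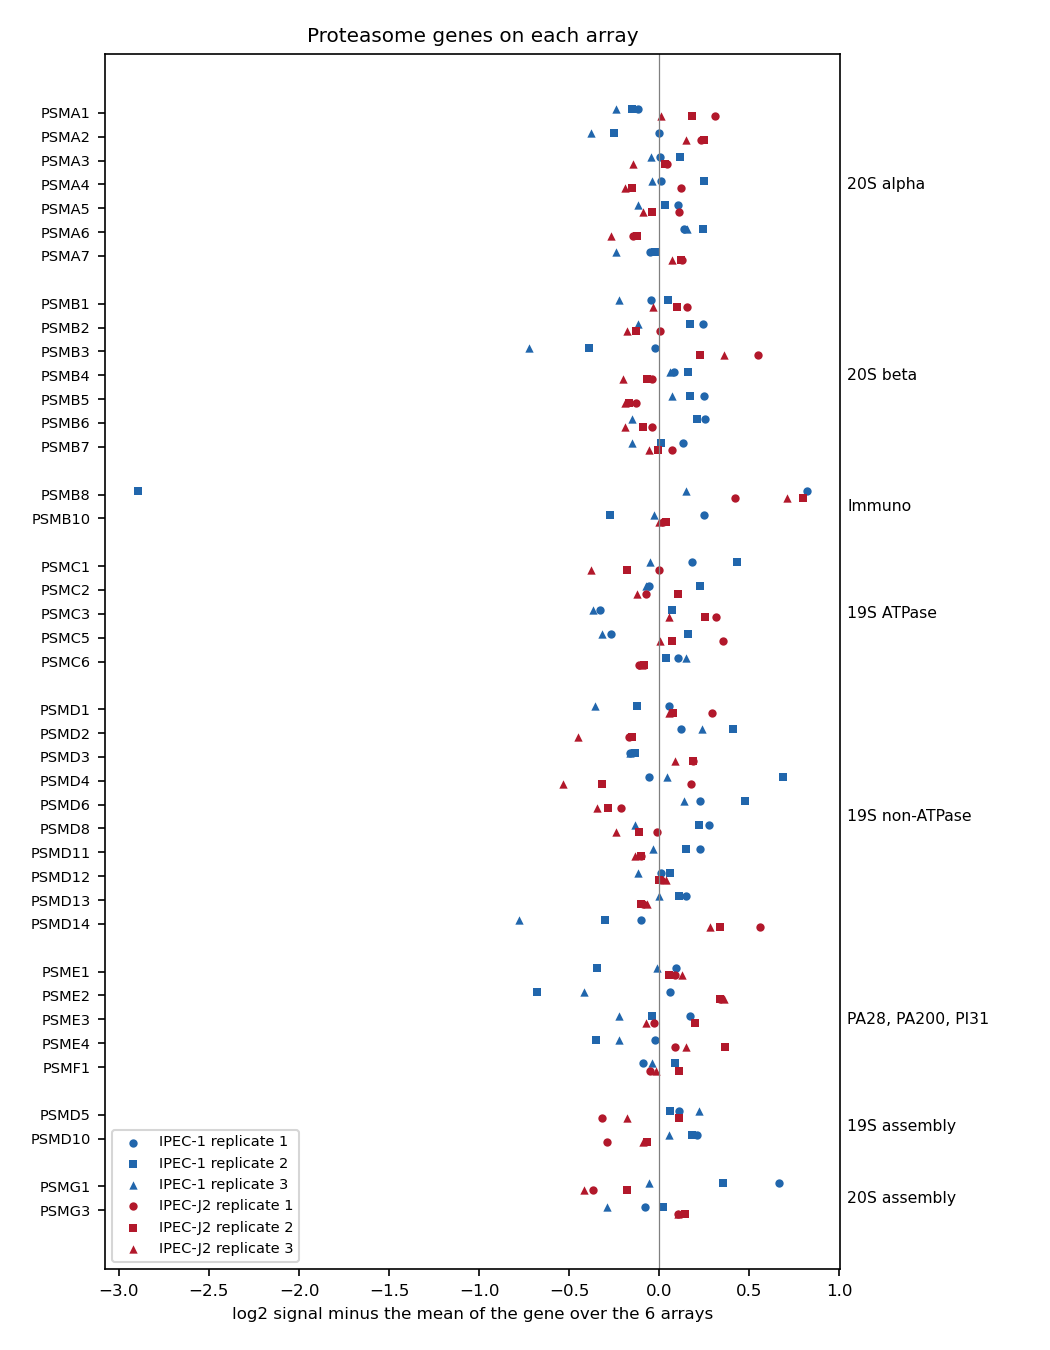
Log2 signal of each proteasome gene on each array, less the mean of that gene over the 6 arrays, with IPEC-1 in blue, IPEC-J2 in red and a symbol for each replicate, grouped by role (20S is the core particle, 19S the regulatory particle). PSMD3, PSMA6, PSMB5 and PSMC6 have separate blue and red points with little spread, and PSMD6 has separate points with more spread in IPEC-1. IPEC-1 replicate 2 stands far to the left in PSMB8, where it is at the floor.

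Of the 5 ATPase genes of the regulatory particle, PSMC6 was lower in IPEC-J2. The ATPases form the ring that unfolds substrates and opens the gate of the core. PSMC6 had signals of 11.69, 11.62 and 11.73 in IPEC-1 against 11.47, 11.50 and 11.49 in IPEC-J2. The difference of -0.19 (SE 0.032, adjusted p = 0.0206 from limma), a 1.14-fold lower level, was the smallest of the called ones, and the replicates lay within 0.11 of each other in IPEC-1. The other ATPases had wider spreads. PSMC3 had a difference of 0.41, PSMC5 of 0.28, PSMC2 of -0.07 and PSMC1 of -0.37 (adjusted p = 0.15, 0.377, 0.838 and 0.223 from limma), and in each of these the lines overlapped. PSMC1 had the largest negative difference of the ring, with 10.44, 10.69 and 10.21 in IPEC-1, in comparison to 10.26, 10.08 and 9.88 in IPEC-J2. PSMC3 had the largest positive one, with 9.76, 10.16 and 9.72 in IPEC-1 against 10.40, 10.34 and 10.14 in IPEC-J2, and it passed without IPEC-1 replicate 2 (0.55, adjusted p = 0.0495 from limma). Within culture notes A and B, the difference of PSMC6 was -0.20 and -0.15.

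Among the 10 further genes of the regulatory particle, PSMD3 was higher and PSMD6 lower. Both encode scaffold subunits of the lid, the part that holds the deubiquitinase. PSMD3 had signals of 8.91, 8.94 and 8.91 in IPEC-1, in comparison to 9.26, 9.26 and 9.16 in IPEC-J2. This was a 1.24-fold higher level (log2 difference 0.31, SE 0.0333, adjusted p = 0.00730 from limma), and it was the sole proteasome call that held without any 1 array (adjusted p between 0.00354 and 0.0345). PSMD6 had signals of 11.58, 11.83 and 11.49 in IPEC-1 against 11.14, 11.07 and 11.01 in IPEC-J2. It was 1.47-fold lower (log2 difference -0.56, SE 0.103, adjusted p = 0.0272 from limma), the largest difference among the called genes. Within notes A and B, the differences were 0.25 and 0.32 for PSMD3 and -0.57 and -0.69 for PSMD6.

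The deubiquitinase itself, PSMD14, which removes the ubiquitin chain before degradation, was not called. Its signals of 9.88, 9.68 and 9.20 in IPEC-1 lay below the 10.54, 10.32 and 10.26 of IPEC-J2 without overlap. At 0.79 its difference was the largest of the regulatory particle (SE 0.208, 95% interval 0.23 to 1.34, adjusted p = 0.0682 from limma), and it was 0.38 within note A and 0.86 within note B. PSMD2, a scaffold that docks ubiquitin carriers, lay just outside the threshold in the other direction. It had signals of 10.91, 11.20 and 11.03 in IPEC-1, in comparison to 10.62, 10.64 and 10.34 in IPEC-J2, a difference of -0.51 (95% interval -0.84 to -0.19, adjusted p = 0.0524 from limma). PSMD1, the other large scaffold, had a difference of 0.29 and overlapped (adjusted p = 0.241 from limma).

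PSMD4, a receptor for ubiquitin chains, had 10.10, 10.84 and 10.20 in IPEC-1 against 10.33, 9.84 and 9.62 in IPEC-J2. Its arrays were spread over more than the difference of -0.45 (95% interval -1.25 to 0.35). The difference was -0.48 within note A, -0.51 within note B and -0.36 between the remaining arrays, and with these pairs as a block PSMD4 was called lower (adjusted p = 0.0452 from limma). The lid subunits PSMD11 and PSMD13 had differences of -0.22 and -0.17 without overlap (adjusted p = 0.113 and 0.0606 from limma), and both passed without IPEC-1 replicate 3 (-0.30 and -0.22, adjusted p = 0.0198 and 0.0130). PSMD8 and PSMD12 overlapped, with -0.24 and 0.03. Of the 15 genes of the regulatory particle, 1 was higher, 2 were lower and 12 were not called, and the lines did not overlap in 7. The share called was 20%, where 20.7% of all genes and 25.4% of the measured genes were called. The share without overlap was 46.7%, near the 47.5% of the measured genes.

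**Figure D3:**
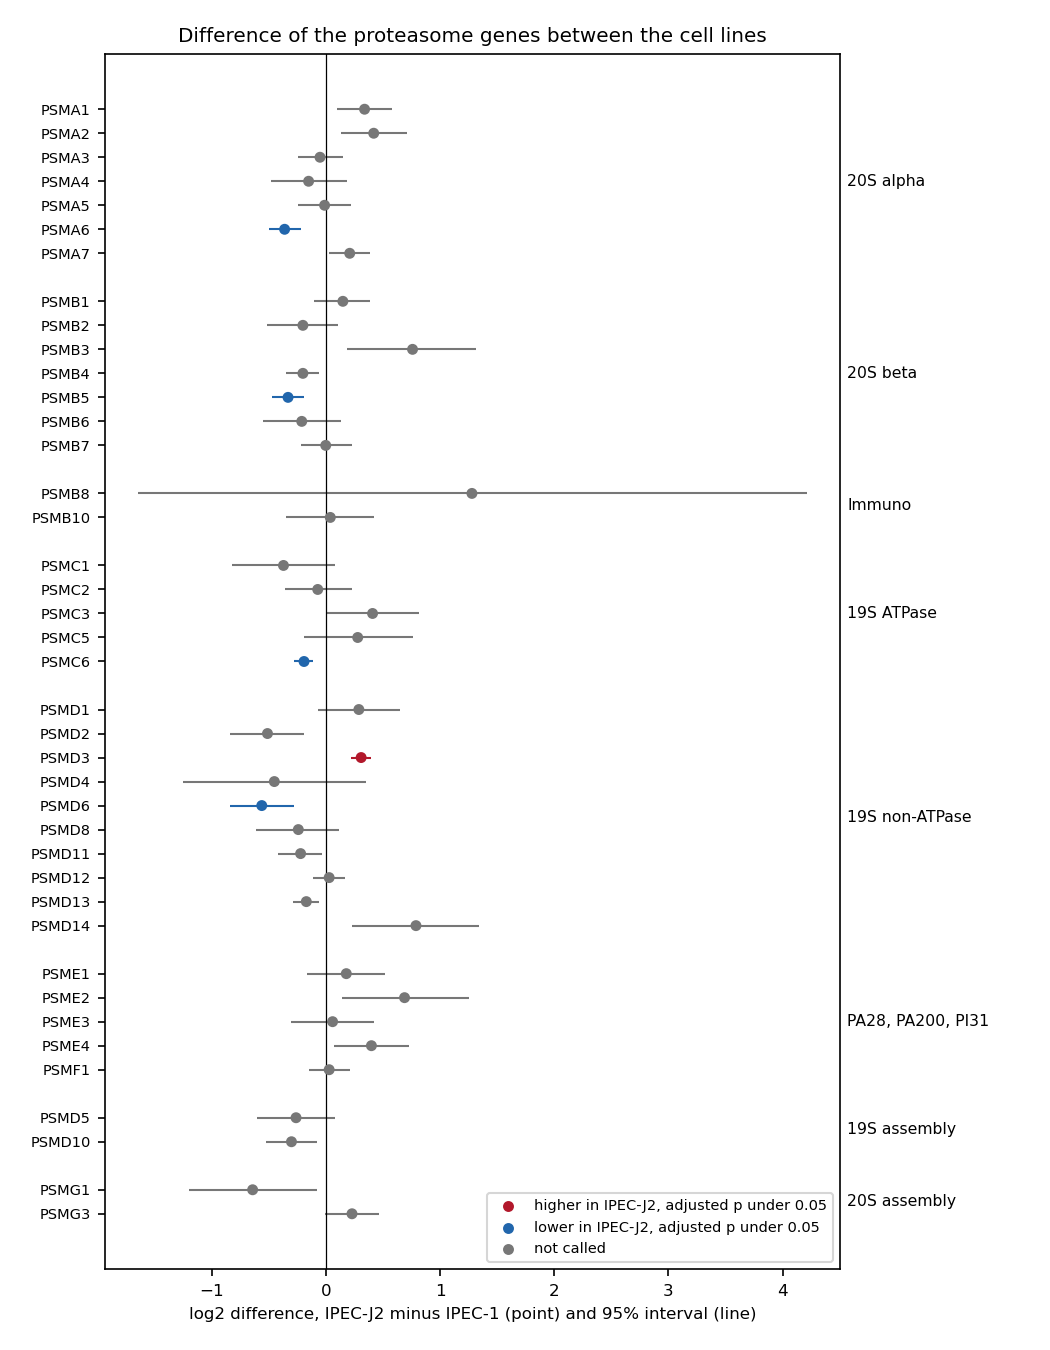
Log2 difference between IPEC-J2 and IPEC-1 for each proteasome gene (points) with its 95% interval from limma (lines), grouped by role, with called genes in red (higher in IPEC-J2) or blue (lower). PSMD3 is the red point, PSMD6, PSMA6, PSMB5 and PSMC6 are the blue ones, and PSMB8 has the widest interval, from -1.64 to 4.21.

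The called genes were thus not those with the largest differences. Their SEs lay between 0.032 and 0.103, while PSMB3, PSMD14, PSME2 and PSMG1, which had the largest differences in size after PSMB8, had SEs between 0.206 and 0.212. With each array centred on its 75th percentile, a setting that raises the dimmer array of IPEC-J2 replicate 1, none of the 5 genes passed (adjusted p between 0.0582 and 0.377) and PSMD14, PSME2 and PSME4 were called higher, so that 3 genes were higher and 0 lower. That setting called 22.9% of all genes. Leaving out 1 array ended the call of PSMA6 without IPEC-1 replicate 3 (adjusted p = 0.0534), of PSMD6 without IPEC-1 replicate 1 (0.0746) or any 1 array of IPEC-J2 (0.0641 to 0.1), of PSMB5 without IPEC-1 replicate 2 (0.0671) or any 1 of IPEC-J2 (0.0508 to 0.0788), and of PSMC6 without IPEC-1 replicate 1 (0.0722) or any 1 of IPEC-J2 (0.0650 to 0.0798). With the note pairs and the remaining arrays as a block, PSMD3 and PSMA6 passed (adjusted p = 0.0431 and 0.0473 from limma), and PSMC6, PSMD6 and PSMB5 did not (0.0545, 0.0622 and 0.0821). The calls also turned over when genes at the floor on every array were left out of the fit. PSMB5 and PSMC6 then did not pass (adjusted p = 0.0514 and 0.148 from limma). PSMB3, PSMD14 and PSMD2, with larger differences, did pass (0.0475, 0.041 and 0.0433).

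The immunoproteasome genes did not differ beyond the spread of the arrays. PSMB8, which takes the place of PSMB5, had signals of 7.71, 4.00 and 7.04 in IPEC-1, in comparison to 7.31, 7.69 and 7.60 in IPEC-J2. IPEC-1 replicate 2 was at the floor and the other arrays of IPEC-1 lay beside those of IPEC-J2. The difference of 1.28 (SE 1.09, 95% interval -1.64 to 4.21, adjusted p = 0.551 from limma) rested on that array, and without it the difference was 0.16. It was -0.11 within note A and 3.31 within note B, which holds the array at the floor. PSMB10, which takes the place of PSMB7, had signals of 9.89, 9.37 and 9.61 in IPEC-1 against 9.66, 9.68 and 9.64 in IPEC-J2. The difference was 0.04 (95% interval -0.35 to 0.42), -0.25 within note A and 0.29 within note B, and without IPEC-1 replicate 2 it was -0.09.

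PSME1 and PSME2 encode the partner subunits of PA28, an activator cap that opens the core without ATP and is induced by interferon gamma. In the pig genome a single coding gene, EMC9, lies between them, as TAP1 does between PSMB8 and PSMB9 (RefSeq gene table). PSME2 had signals of 10.96, 10.22 and 10.48 in IPEC-1, in comparison to 11.24, 11.24 and 11.26 in IPEC-J2. The IPEC-J2 arrays were nearly equal and lay above all those of IPEC-1, with a difference of 0.69 (SE 0.206, 95% interval 0.14 to 1.25, adjusted p = 0.0917 from limma). Without IPEC-1 replicate 1, PSME2 passed (0.90, adjusted p = 0.0187). PSME1 had signals of 11.94, 11.50 and 11.83 in IPEC-1 against 11.93, 11.90 and 11.97 in IPEC-J2 and overlapped, with a difference of 0.18 (adjusted p = 0.456 from limma), or 0.05 without IPEC-1 replicate 2. Within notes A and B, the differences were 0.30 and 1.02 for PSME2 and 0.03 and 0.43 for PSME1. IPEC-1 replicate 2 had the lowest signal of the 6 arrays in PSMB8, PSMB10, PSME1, PSME2 and PSME4 and in no other proteasome gene. The first 4 of these are the interferon-inducible ones of the 40, a pattern that was seen in the values and not tested. Low signals on this array were not limited to such genes. Of the epithelial markers, CDH1 (8.23 against 9.91 and 9.97), ELF3, KRT19, OCLN, TJP1 and VIL1 were lowest of IPEC-1 there. CLDN4, CLDN7, EPCAM (13.46 against 13.34 and 13.37), KRT8 and KRT18 were not, and CLDN3 gave no order in IPEC-1. The IPEC-J2 array of note B, the dimmer replicate 1, was also lowest of its line in CDH1 (8.32 against 9.78 and 9.70), ELF3 and OCLN. It was not the lowest in KRT19 and VIL1, and TJP1 gave no order in IPEC-J2.

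The other activators and the inhibitor were not called. PSME4 (PA200), an activator of the nucleus, had signals of 8.87, 8.54 and 8.67 in IPEC-1, in comparison to 8.98, 9.26 and 9.04 in IPEC-J2, without overlap, and a difference of 0.40 (adjusted p = 0.0974 from limma). PSME3, the nuclear relative of PA28, had signals of 7.84, 7.63 and 7.45 in IPEC-1 against 7.64, 7.87 and 7.60 in IPEC-J2, and a difference of 0.06 (adjusted p = 0.916 from limma). PSMF1 (PI31), first described as an inhibitor of the core, had 8.16, 8.34 and 8.21 in IPEC-1, in comparison to 8.20, 8.36 and 8.23 in IPEC-J2. Its values were almost the same in both lines (difference 0.03, 95% interval -0.15 to 0.21), and its 2 probe sets had differences of -0.07 and 0.13.

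Assembly of the core starts on a ring of alpha subunits that PSMG1 helps to build in a pair with PSMG2, and PSMG3 acts with PSMG4. PSMG1 had signals of 10.15, 9.84 and 9.43 in IPEC-1 against 9.12, 9.31 and 9.07 in IPEC-J2. The lines did not overlap, and the difference of -0.64 (SE 0.21, 95% interval -1.20 to -0.08, adjusted p = 0.114 from limma) was the most negative of the 40. It was -1.08 within note A, -0.72 within note B and -0.12 between the remaining arrays, IPEC-1 replicate 3 and IPEC-J2 replicate 2. Without IPEC-1 replicate 3 the gene passed (-0.83, adjusted p = 0.0480). PSMG3 ran the other way, with 8.52, 8.62 and 8.31 in IPEC-1, in comparison to 8.70, 8.74 and 8.70 in IPEC-J2, a difference of 0.23 (adjusted p = 0.161 from limma). PSMD5 and PSMD10, chaperones of the ATPase ring that are not part of the finished particle, had differences of -0.26 and -0.30 (adjusted p = 0.256 and 0.0753 from limma), and PSMD10 did not overlap.

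A few genes rested on several probe sets, the groups of oligonucleotides on the array that are designed for 1 transcript sequence. PSMD11 had 3, of which 1 was at the floor on all arrays and the others had differences of -0.29 and -0.38, so that the mean of -0.22 includes a probe set without signal. The 3 probe sets of PSMC2 had differences of -0.04, -0.12 and -0.03, and the 2 of PSMD1 of 0.41 and 0.16.

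Within each cell line, the proteasome genes moved together from array to array. The lowest signal of the line was on IPEC-1 replicate 3 in 28 of the 40 genes and on IPEC-J2 replicate 3 in 28 as well, which is 70.0% in each line (ties not counted). Over the measured genes, these arrays held the lowest signal in 25.2 and 16.9%. The dimmer array of IPEC-J2 replicate 1 was the lowest of its line in 60.9% of the measured genes but in 15.0% of the proteasome genes. The median deviation of the proteasome genes from the mean of their line was -0.12 on IPEC-1 replicate 3 and -0.07 on IPEC-J2 replicate 3, and between 0.01 and 0.06 on the others. The genes of 1 array share its RNA, so the counts are a description.

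**Figure D4:**
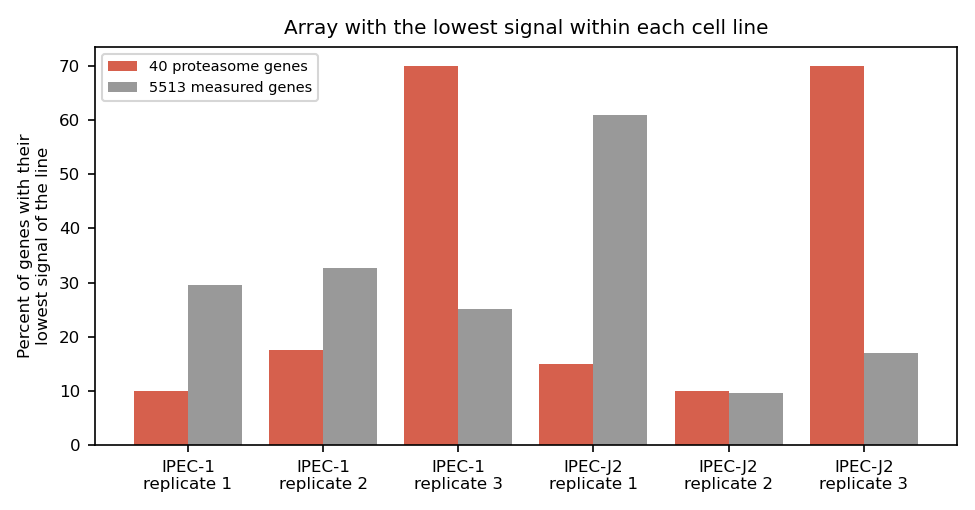
Percent of the 40 proteasome genes (red bars) and of the 5513 measured genes (grey bars) that had the lowest signal of their cell line on each array. Replicate 3 of each line holds 70.0% of the proteasome genes, and IPEC-J2 replicate 1 holds 60.9% of the measured genes.

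Genes that work with the proteasome were taken from a list of 32 symbols, of which 11 had a value. Of these, 4 were higher in IPEC-J2 and 0 lower, or 36.4% against the background of 20.7% of all genes and 25.4% of the measured genes. At an unadjusted p under 0.05 from limma there were 7 higher and 1 lower, where 40.2% of the measured genes passed in either direction. FBXO7, an F-box protein that binds PSMF1, had signals of 7.87, 7.99 and 7.78 in IPEC-1 against 8.61, 8.92 and 8.85 in IPEC-J2, a 1.88-fold higher level (adjusted p = 0.00867 from limma). PAAF1, which binds free ATPases of the regulatory particle, was 1.55-fold higher (6.34 ± 0.08 in IPEC-1 and 6.97 ± 0.17 in IPEC-J2, SD, n = 3, adjusted p = 0.0212 from limma). The ubiquitin ligase UBE3A was 1.20-fold and OAZ1, which sends ornithine decarboxylase to the proteasome without ubiquitin, 1.19-fold higher (adjusted p = 0.0198 and 0.0236 from limma). SEM1, the small subunit of the lid that does not carry a PSM symbol, had a difference of 0.29 (adjusted p = 0.106 from limma). PITHD1, a partner of the proteasome, had a difference of -1.08 that did not pass (adjusted p = 0.0596 from limma). POMP, the maturation factor of the core, and NFE2L1, which drives proteasome genes when the protease is blocked, were not analysed here.

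Genes of antigen presentation and interferon signaling were taken from a list of 34 symbols, with 26 valued and 24 above the floor. Here 10 were higher and 2 lower in IPEC-J2, or 46.2% of the 26. The background was 20.7% over all genes (9.46% higher and 11.2% lower) and 25.4% over the measured genes. IRF1, a transcription factor known to induce the immunoproteasome and TAP1, had signals of 9.47, 8.55 and 9.09 in IPEC-1, in comparison to 10.26, 10.44 and 10.41 in IPEC-J2, 2.52-fold higher (adjusted p = 0.0311 from limma). IPEC-1 replicate 2 was again the lowest. Over the 24 genes of this list above the floor, that array held the lowest signal of its line in 10. The share over the measured genes was 32.7%. The class I light chain B2M was 3.79-fold higher (7.98 ± 0.17 in IPEC-1 and 9.90 ± 0.06 in IPEC-J2, SD, n = 3, adjusted p = 0.000894 from limma). The class I heavy chain SLA-2 was 7.26-fold higher and the peptide transporter subunit TAP1 1.5-fold (adjusted p = 0.000553 and 0.00905 from limma). TAP1 is a mean of 3 probe sets, at 5.19 in IPEC-1 and 5.77 in IPEC-J2, near the floor, so its fold is uncertain. Class I heavy chain genes are near copies of each other, so the signals of single SLA genes are uncertain. SLA-7 and SLA-8 of the same family were not called, with differences of 0.10 and -0.28 (adjusted p = 0.13 and 0.216 from limma) and no overlap between the lines. SLA-6 and the interferon gamma receptor IFNGR1 had only floor values in IPEC-1 and had signals of 6.55 ± 0.04 and 7.26 ± 0.40 (SD, n = 3) in IPEC-J2. On the lower side, the kinase JAK1 was 2.72-fold lower and MX1, an antiviral interferon target, had only floor values in IPEC-J2 (8.15 ± 0.47 in IPEC-1, SD, n = 3). Some further interferon targets of the list were not called. ISG15, IFIT1, IFIT3, GBP1 and GBP2 had differences of -0.73, -0.22, 0.55, 0.16 and 0.74, and OAS1 was at the floor on all arrays. IFIT3 and GBP2 were at the floor on IPEC-1 replicate 2 alone. Their differences were -0.12 and -0.18 within note A, and 1.63 and 2.66 within note B, which holds that array. The calls of the list thus did not extend to all of its interferon targets. B2M, SLA-2, TAP1 and IRF1 were called higher in the same arrays in which PSMB8 and PSMB10 were not called, and the difference between these gene groups was not tested.

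**Figure D5:**
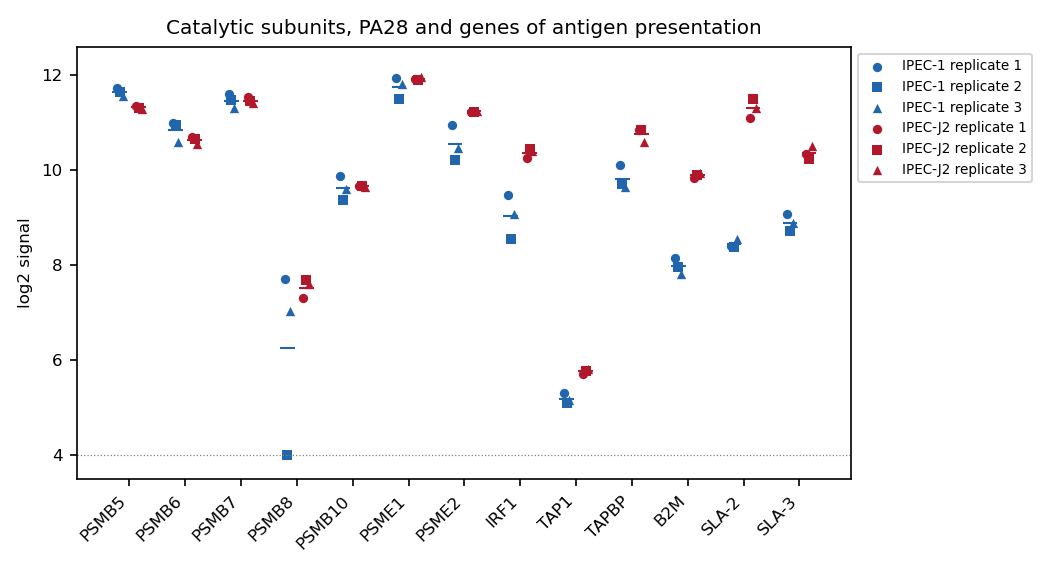
Log2 signals of the catalytic subunits of the standard core (PSMB5, PSMB6, PSMB7), of the immunoproteasome (PSMB8, PSMB10), of PA28 (PSME1, PSME2) and of 6 genes of antigen presentation, with IPEC-1 in blue, IPEC-J2 in red, a symbol for each replicate, short lines at the means and the floor of 4 dotted. TAPBP and SLA-3, chosen after their values were seen, are both higher in IPEC-J2, and the PSMB8 mean of IPEC-1 is drawn down by replicate 2 at the floor.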

How the data were processed

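RNA of 6 cultures, 3 of IPEC-1 and 3 of IPEC-J2, was measured on 6 arrays, and groups and replicate numbers were taken from the sample titles. The signals of 24123 probe sets that the authors deposited were taken as log2 values, since the floor of exactly 4 is the log2 of 16. The submitters' processing notes name GCOS 1.1.1 and PLIER. The methods name another version of GCOS, with global scaling to a target signal, and a preprocessing step with background correction and normalization. Neither the log base nor which of these steps the deposited values carry is given in the sources used here. No further normalization was added. After 124 control probe sets were left out, the 10069 probe sets with 1 symbol in the platform annotation were averaged per symbol to 6765 genes. All 40 proteasome genes matched the RefSeq gene table by identifier and symbol. IPEC-J2 was compared with IPEC-1 with limma 3.58.1 (R 4.3.3) under its default lmFit and eBayes settings and without a block. Genes with a Benjamini-Hochberg adjusted p under 0.05, taken across the 6765 genes, were called, and the fit kept the 1252 genes that never left the floor. A fold is the antilog of a log2 difference. The methods describe independent experiments, the number of arrays limits the precision, and the spread behind each p-value is that of these cultures alone. Values in full were given for called genes, for catalytic, activator and assembly genes and for the largest difference of each class in either direction. From the other lists up to 4 called genes in each direction and preset genes such as IRF1 and TAP1 were named. SEM1, PITHD1, SLA-3, SLA-7, SLA-8, TAPBP, the uncalled interferon targets and the cell type markers named were chosen after their values were seen. The members, lists and rules were chosen with earlier results of these data known. The alternatives were those listed under the dependence on the processing. No genome or sequence was used here.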

Additional observations from a re-analysis of the deposited data

How the results depend on the processing

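The methods' t-test with adjustment, an offset of 16 on the antilog signal and eBayes with trend and robust options called the same 5 proteasome genes as limma, and the brightest probe set per gene added PSMD2. In place of 1 higher and 4 lower, there were 2 and 6 with quantile normalization, 3 and 0 with arrays centred on the 75th percentile, 4 and 4 without genes under a mean of 4.64, 3 and 3 without genes at the floor on every array, 1 and 7 with the culture note as a random block, 0 and 0 on the 4 arrays of notes A and B, and 8 and 10 by the methods' t-test without adjustment. In the same order, these settings called 25, 22.9, 29.9, 25.8, 23.7, 7.15 and 30.7% of all genes tested. Leaving out 1 array gave 1 to 4 higher and 1 to 7 lower genes. The cause was not tested. The replicate numbers of the titles were also tried as pairs. Over the measured genes, the deviations of same-numbered arrays from their line means had correlations of -0.06, -0.11 and 0.06. These values do not settle whether the title number pairs the arrays. With this number as a block, 1 gene was higher (PSMD3) and 0 were lower. By shared note they had correlations of 0.06 (A) and 0.17 (B), and 0.09 for the remaining pair, which the labels do not link. Over the 40 proteasome genes, which share their arrays, the deviations correlated more in the note pairs (0.50, 0.55 and 0.42), and by title number at -0.45, -0.32 and 0.41. With these pairs as a block, 1 was higher (PSMD3) and 2 were lower (PSMA6 and PSMD4), with fewer residual degrees of freedom in both blocked fits. Over all genes, the calls of 640 higher and 761 lower became 272 and 324 with the number as a block, 364 and 379 with the notes as a block, 226 and 258 on the arrays of notes A and B, and 920 and 1154 by the unadjusted t-test. They lay between 355 and 613 higher and between 417 and 572 lower with 1 array left out. In the settings above, signs changed in 7 genes (not counting PSMB7 at 0.00), none of them called and each with a difference of 0.07 or less in size. Centred on the 75th percentile, PSMA3 had a difference of 0.01 and PSMA5 of 0.05. On the arrays of notes A and B, PSMD12 had -0.01, PSME3 -0.12 and PSMF1 -0.03, and PSMF1 had -0.07 by its brightest probe set. With 1 array left out, differences lay for PSMA3 between -0.08 and 0.01, PSMA5 between -0.07 and 0.04, PSMB10 between -0.09 and 0.17, PSMC2 between -0.13 and 0.03, PSMD12 between -0.02 and 0.07, PSME3 between -0.03 and 0.16 and PSMF1 between -0.02 and 0.08. Small differences near the floor are limited by signal over background, which was not measured here.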
